A study of Mus musculus with 12 samples.

Results

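The small nucleolar RNA (snoRNA) host genes described here are Gas5, Snhg1, Snhg3, Snhg5, Snhg6, Snhg8, and Snhg12. They were chosen by name, as noncoding genes that carry snoRNAs in their introns, and they make up 7 of the 34245 entries of the deposited table (some genes, such as Snhg14, have several). Their levels were compared between mouse blastocysts with and without inhibition of p38-MAPK. Embryos of F1 hybrid mice (C57Bl6 x CBA/W) were flushed at the 2-cell stage, cultured to E3.5 in KSOM medium with amino acids, and then moved in pools of 30 into medium with either the solvent DMSO (control) or the p38-MAPK inhibitor SB220025 at 20 µM (p38-MAPKi). Collection followed after 4, 7, or 10 h (times below are hours after E3.5), which gave 6 groups of 2 biological replicates and 12 libraries of poly(A)-selected RNA. Every group therefore passed through the same superovulation, culture, and change of medium, and each library is an average over the trophectoderm, epiblast, and primitive endoderm cells of 30 embryos.

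A snoRNA host gene is transcribed and spliced like an mRNA, and its snoRNAs are cut out of the introns that are removed. C/D box snoRNAs guide the methylation of ribose in ribosomal RNA, and H/ACA box snoRNAs guide the conversion of uridine to pseudouridine, so the snoRNAs serve the making of ribosomes. The spliced exons that remain have little coding capacity. Many of these transcripts begin, like the mRNAs of ribosomal proteins, with a run of pyrimidines (the terminal oligopyrimidine, or TOP, feature), are read by ribosomes, and are then removed by nonsense-mediated decay, for which Gas5 is a textbook case.

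The host genes differ in the snoRNAs they carry. Gas5 (ENSMUSG00000053332.13, chr1:161034422-161038539, plus strand, GRCm38) encloses 10 entries of the snoRNA type in GENCODE M21, among them Snord47 and Snord78, but also 2 overlapping entries named Snord80 and 1 named Mir5117. Snhg1 (ENSMUSG00000108414.1, chr19:8723475-8726443, plus strand) encloses 8 such entries, including Snord22. Snhg5 (ENSMUSG00000097195.9, chr9:88521050-88522929, minus strand) carries Snord50a and Snord50b, and Snhg6 (ENSMUSG00000098234.7, chr1:9941959-9944118, minus strand) carries Snord87. These 4 are hosts of C/D box snoRNAs. Snhg3 (ENSMUSG00000085241.7, chr4:132348014-132353686, minus strand) carries the H/ACA box RNAs Snora73a and Snora73b, and Snhg8 (ENSMUSG00000104960.1, chr3:123507552-123508404, minus strand) carries the H/ACA box RNA Snora24. Snhg12 (ENSMUSG00000086290.9, chr4:132308678-132311024, plus strand) holds both kinds, with Snord99 beside Snora16a, Snora44, and Snora61.

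The annotated starts of the host genes were examined for the TOP feature because it is what these genes share with ribosomal protein genes. A window counted as a match when a run of at least 6 C or T on the sense strand, beginning with C, contained the annotated RefSeq start or lay within 5 bases of it. Each sequence below is from GRCm38.p6 and is written 5′ to 3′ with 30 bases before the annotated start and 30 from it on, and capitals mark the run. The windows lie at chr1:161035136-161035195 (Gas5, the second of its 2 annotated starts), chr3:123508307-123508366 (Snhg8), chr4:132308648-132308707 (Snhg12), and chr19:8723457-8723516 (Snhg1, shown because it had the largest difference between p38-MAPKi and control at 7 h and has no such run).
Gas5: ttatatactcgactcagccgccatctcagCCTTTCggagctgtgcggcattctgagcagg
Snhg8: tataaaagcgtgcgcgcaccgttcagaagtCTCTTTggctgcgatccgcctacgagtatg
Snhg12: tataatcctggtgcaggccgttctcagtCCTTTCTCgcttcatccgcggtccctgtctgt
Snhg1: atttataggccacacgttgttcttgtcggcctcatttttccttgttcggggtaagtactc

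Of the 7 host genes, 6 had a promoter window in the RefSeq table, with Snhg6 the exception, and 3 of the 6 (50%) held the run. The run was found at 30 of 58 ribosomal protein genes with a window (51.7%), at 4 of 12 other noncoding snoRNA hosts (33.3%), at 1 of 13 protein-coding hosts (7.69%), and at 18.7% of all 27025 genes with a window (16.3% of all 32851 windows). The other start of Gas5 and the starts of Snhg1, Snhg3, and Snhg5 did not hold it. A match describes these letters at an annotated start and does not show where transcription began in the blastocyst.

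The libraries had 11242313 to 24457312 reads, as worked out from the value that stands for a gene without reads. Replicate 1 of p38-MAPKi at 7 h stood apart, with the fewest reads and 14010 genes with a read, against 16352 to 17654 in the others. Across genes with a mean of at least 1 RPKM, the correlation between the log2 values of the replicates was 0.926 in its group and 0.973 to 0.989 in the other groups. All 6 epiblast and all 6 trophectoderm markers, and 5 of 6 primitive endoderm markers, had at least 1 RPKM in every library. The sum of the primitive endoderm markers at 7 h was 174 to 189 RPKM in control and 116 to 122 RPKM in p38-MAPKi libraries, and Dab2, an endocytic adaptor, was the only one of the 5 tested that was called (from 52.4 ± 7.19 to 26.1 ± 3.03 RPKM, SD, n = 2; limma, adjusted p = 0.0461). The log2 differences of Gata6, Gata4, Sox17, and Pdgfra were also below 0, at −0.47, −0.65, −0.20, and −0.46. Only 40.1% of all tested genes lay above 0 at 7 h, with a median of −0.14. At 10 h the sums overlapped, at 179 to 182 RPKM in control and 179 to 184 RPKM in p38-MAPKi libraries. There, 2 of the 5 tested primitive endoderm markers lay above 0 and 3 below. For the effect common to the time points, Dab2 (−0.50, limma, adjusted p = 0.0122) and the trophectoderm markers Gata3 (−0.51, adjusted p = 0.00649) and Cdx2 (−0.38, adjusted p = 0.0138) were called lower. The other trophectoderm markers were not called, with 0.10 for Krt8, 0.08 for Krt18, 0.02 for Tfap2c, and −0.09 for Eomes. The sums of the trophectoderm markers at 7 h overlapped, at 1808 to 2388 RPKM in control and 2062 to 2205 RPKM in p38-MAPKi libraries. The part of the marker shifts in the results below was not tested. Of the markers of cumulus and oocyte, 1 of 6 and 3 of 6 reached 1 RPKM in any library, with sums of at most 8.18 and 7.39 RPKM. In pools of whole embryos, fewer cells of a type and less RNA per cell cannot be told apart, and no RNA was spiked in, so that values are relative to the other RNA of the library.

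Every host gene had reads in every control library. Each had 266 to 2827 reads in a control library (209 to 3758 over all 12), and its mean RPKM over the 12 libraries (reads per kilobase of counted sequence, scaled to the depth of the library) exceeded that of 86.3% (Snhg12) to 95.9% (Snhg1) of the entries in the table. Of the 34245 entries, 12527 had no read in any library, so these shares are smaller among expressed genes. At 7 h, 10940 genes reached 1 RPKM and 5081 reached 10 RPKM in 2 or more libraries. Over the 6 control libraries, Snhg1 was at 35.0 ± 4.16 RPKM (SD, n = 6) and Gas5 at 33.2 ± 1.60 RPKM. Snhg3 followed at 24.9 ± 4.27 RPKM, Snhg5 at 22.4 ± 1.57 RPKM, Snhg8 at 20.1 ± 3.31 RPKM, and Snhg6 at 19.2 ± 3.59 RPKM. Neighbours in this order overlapped in their ranges, down to Snhg6. Snhg12 was the lowest at 9.98 ± 1.07 RPKM, and its highest control library (11.8 RPKM) lay below the lowest of any other host gene (14.6 RPKM, Snhg6).

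The counted length bears on these levels. For Snhg1 and Snhg8 the counted length equalled the whole span of the gene (2969 and 853 bases), and for Gas5 and Snhg5 it was 91.3% and 92.0% of the span, because the annotated isoforms together cover most introns. Reads from retained introns and from snoRNA precursors were then counted with those of the spliced host and cannot be told apart from them. For Snhg3, only 17.4% of the span (986 bases) was counted, but this part overlapped Snora73a. For Snhg12, 69.3% of the span (1626 bases) was counted, and it overlapped all 5 snoRNA entries. The counted part of Snhg6 (53.1% of the span) did not overlap Snord87. Snhg3 shares 135 exonic bases with Rcc1 on the same strand, which had 1806 to 3978 reads per library, and 705 bases with the antisense gene Gm17300, which had 0 reads in all 12. Snhg6 shares 127 bases with the antisense gene Mcmdc2, which had 1 to 48 reads. The strand setting of the counting is not given in the sources used here.

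**Figure D1:**
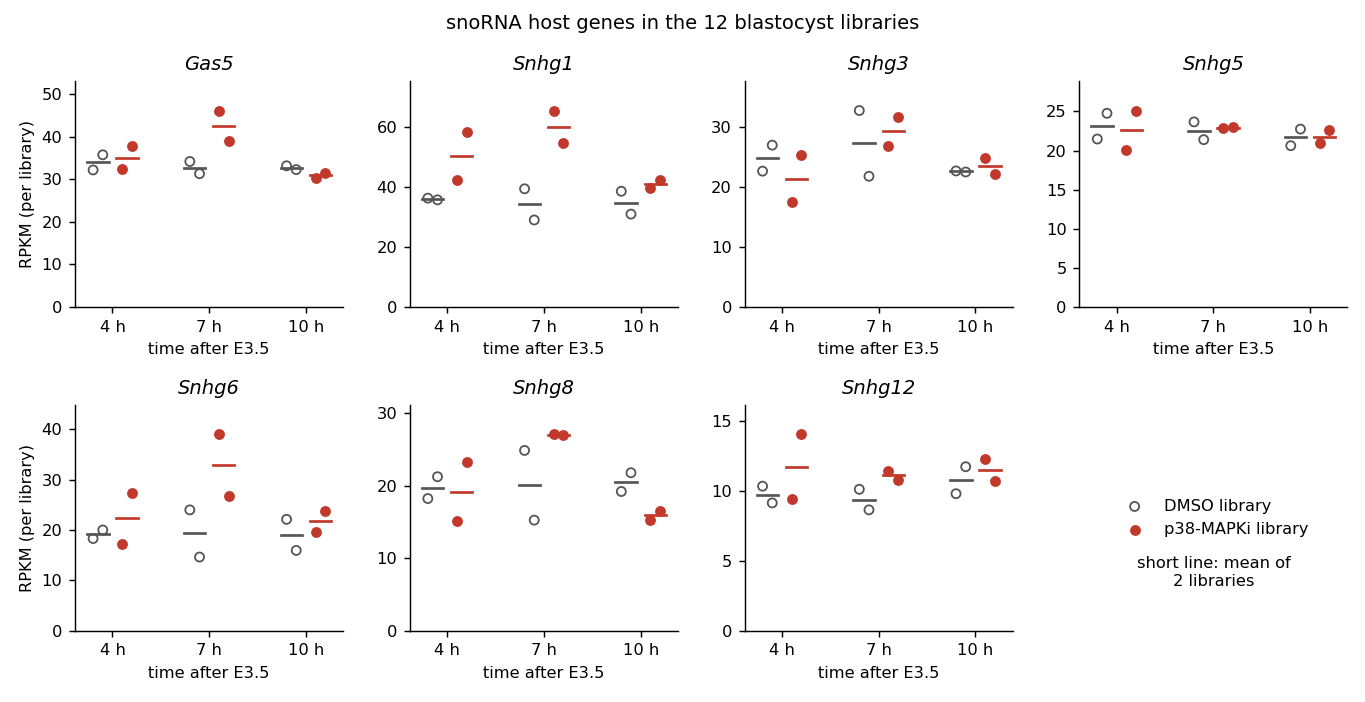
Levels of the 7 host genes in RPKM (y axis, from 0) at 4, 7, and 10 h after E3.5 (x axis), with open circles for control (DMSO) libraries, filled circles for p38-MAPKi libraries, and short lines for the mean of 2 libraries. At 7 h both p38-MAPKi libraries lay above both control libraries for Gas5, Snhg1, Snhg6, Snhg8, and Snhg12, and at 10 h both lay below for Gas5 and Snhg8.

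The time points of the control group were compared first, to see whether the host genes moved during culture without the inhibitor. No difference was detected. With limma, 0 of 7 passed an adjusted p of 0.05 between 4 h and 7 h, where 0.492% of all tested genes did, and 0 of 7 between 7 h and 10 h, where 0.0552% did. In both comparisons 0 of 7 had an unadjusted p under 0.05, against 4.79% and 3.79% of all genes, and voom on the recovered reads also called 0 of 7. The libraries of all 7 overlapped, whereas those of 25.3% of all genes lay higher and those of 3.69% lower at the later time of the first step, and those of 18.3% and 12.4% at the later time of the second. The log2 differences lay between −0.09 (Snhg1) and 0.11 (Snhg3) for the first step and between −0.24 (Snhg3) and 0.20 (Snhg12) for the second. At 7 h control replicate 1 exceeded replicate 2 for each of the 7 genes, for example 24.9 against 15.3 RPKM for Snhg8.

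Of the host genes, Snhg1 differed most between p38-MAPKi and control at 4 h, at 7 h, and in the effect common to the time points. At 4 h it was at 36.3 and 35.8 RPKM in control and at 42.3 and 58.6 RPKM in p38-MAPKi blastocysts. At 7 h the values were 39.5 and 29.0 RPKM in control and 65.6 and 54.7 RPKM in p38-MAPKi blastocysts. At 10 h they were 38.6 and 31.0 RPKM in control and 39.6 and 42.3 RPKM in p38-MAPKi blastocysts. Both p38-MAPKi libraries thus lay above both controls at each time point, by the widest margin at 7 h and the narrowest at 10 h. The log2 difference was 0.47 (SE 0.201, limma, adjusted p = 0.378) at 4 h, 0.82 (SE 0.203, adjusted p = 0.0576) at 7 h, and 0.24 (SE 0.110, adjusted p = 0.284) at 10 h, so that no single time point passed the threshold. For the effect common to the time points, estimated in all 12 libraries, Snhg1 rose by 0.51 on the log2 scale, or 1.42-fold (SE 0.109, limma, adjusted p = 0.018).

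This made Snhg1 the only one of the 7 host genes called for the common effect, where limma called 10.1% of all 11590 tested genes. The call was lost without the mean-variance trend of limma (adjusted p = 0.0559) and without the filter on low values (adjusted p = 0.104). It was also lost when replicate 2 of control at 4, 7, or 10 h, or replicate 2 of p38-MAPKi at 10 h, was left out, with adjusted p-values of 0.0515, 0.052, 0.0674, and 0.0638.

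Snhg6 showed the next largest difference, at 7 h. There it was at 24.0 and 14.6 RPKM in control and at 39.0 and 26.7 RPKM in p38-MAPKi blastocysts, with the libraries apart (log2 difference 0.78, SE 0.271, limma, adjusted p = 0.106). At 4 h the values of 18.3 and 20.0 RPKM in control lay between those of 17.3 and 27.3 RPKM in p38-MAPKi blastocysts. At 10 h the control values of 22.1 and 16.0 RPKM and the p38-MAPKi values of 19.7 and 23.8 RPKM overlapped. The log2 differences at these time points were 0.18 and 0.20, and the common effect of 0.39 (SE 0.161) was not called (limma, adjusted p = 0.128).

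Gas5 varied less than any other between control libraries relative to its level. At 4 h it was at 32.2 and 35.8 RPKM in control and at 32.3 and 37.9 RPKM in p38-MAPKi blastocysts, which overlapped. At 7 h it was at 34.2 and 31.3 RPKM in control and at 46.2 and 39.0 RPKM in p38-MAPKi blastocysts, and at 10 h at 33.2 and 32.3 RPKM against 30.4 and 31.5 RPKM. The p38-MAPKi libraries thus lay above the controls at 7 h and just below them at 10 h. The log2 differences of 0.05, 0.37 (SE 0.177, limma, adjusted p = 0.202), and −0.08 at the 3 time points did not pass the test.

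Snhg5, the last of the C/D box hosts, was nearly level throughout, between 20.0 and 25.1 RPKM in all 12 libraries. Its log2 differences were −0.04, 0.03, and 0.01, and the groups overlapped at each time point. At 7 h its p38-MAPKi libraries (22.9 and 23.0 RPKM) lay between the controls (23.7 and 21.4 RPKM).

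Among the hosts of H/ACA box snoRNAs, Snhg8 differed in opposite directions at the later time points. It was at 24.9 and 15.3 RPKM in control and at 27.1 and 27.0 RPKM in p38-MAPKi blastocysts at 7 h. At 10 h it was at 19.2 and 21.8 RPKM in control and at 15.3 and 16.5 RPKM in p38-MAPKi blastocysts. At 4 h the control values of 18.2 and 21.2 RPKM lay between the p38-MAPKi values of 15.1 and 23.3 RPKM. The libraries were apart at the later times, higher at 7 h (log2 difference 0.47, SE 0.237, limma, adjusted p = 0.225) and lower at 10 h (−0.36, SE 0.0926, adjusted p = 0.108). With the length trend of the libraries removed, the difference at 7 h was −0.06 and that at 10 h −0.31.

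Snhg3 ranged from 17.5 to 32.8 RPKM over the 12 libraries, and its groups overlapped at each time point, with log2 differences of −0.23, 0.13, and 0.05. Snhg12, which hosts both kinds of snoRNA, was at 10.1 and 8.66 RPKM in control and at 11.4 and 10.8 RPKM in p38-MAPKi blastocysts at 7 h, a narrow separation (log2 difference 0.25, SE 0.196, limma, adjusted p = 0.422). Its libraries overlapped at the other time points, where the log2 differences were 0.24 and 0.09.

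Counted together at 4 h, 0 of 7 host genes were called by limma, against 0.909% of all tested genes, and 0 of 7 by voom. Only Snhg1 had an unadjusted p under 0.05, as did 9.42% of all genes, and only Snhg1 had both p38-MAPKi libraries above both controls, as did 26.8% of all genes. The median log2 difference of the 7 was 0.05, and that of all tested genes 0.07. In this comparison limma estimated infinite prior degrees of freedom, and each gene was tested with the variance of the trend in place of its own. The p38-MAPKi replicates differed from each other, with replicate 2 above replicate 1 for all 7 host genes. Without replicate 1 the log2 difference of Snhg1 was 0.70.

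At 7 h, 0 of 7 host genes were called by limma, against 2.13% of all tested genes. Voom called 1 of 7 (Snhg1) and 1728 of all 10924 genes it tested, which is a similar share. Snhg1 and Snhg6 had an unadjusted p under 0.05, a share of 2 of 7 against 28.4% of all genes. Both p38-MAPKi libraries lay above both controls for 5 of 7 host genes, and for 23% of all genes. The log2 difference was above 0 for 7 of 7, against 40.1% of all genes. The median of the 7 was 0.37, and that of all tested genes −0.14. These directions held with median centring and quantile normalization, but with the length trend removed the differences of Snhg3, Snhg5, Snhg8, and Snhg12 fell on the other side of 0.

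The count at 7 h turned on single libraries, as did the number of all genes called. Without replicate 1 of control, the median log2 difference of the 7 was 0.44, and without replicate 2 of p38-MAPKi it was 0.48. Without replicate 2 of control, the library with the lowest levels, the median log2 difference of the 7 was 0.13, and without the shallow replicate 1 of p38-MAPKi it was 0.25.

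At 10 h, 0 of 7 host genes were called by limma, against 0.803% of all tested genes, and 0 of 7 by voom. Only Snhg8 had an unadjusted p under 0.05, as did 19.8% of all genes. Both p38-MAPKi libraries lay above both controls for Snhg1 (22.6% of all genes) and below for Gas5 and Snhg8 (29.6% of all genes). The median log2 difference was 0.05 for the host genes and −0.02 for all tested genes.

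**Figure D2:**
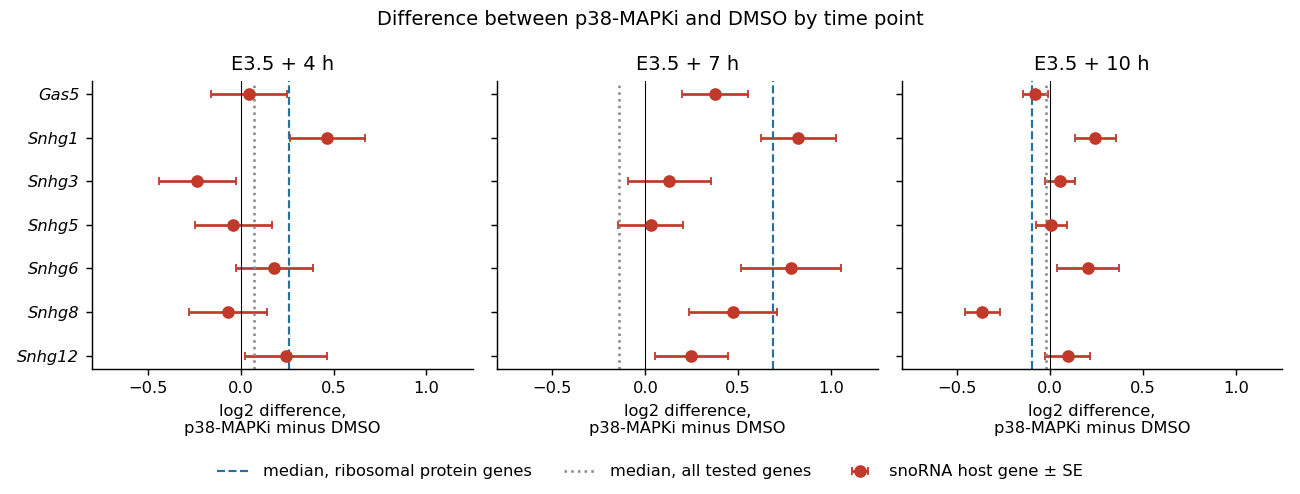
Log2 difference between p38-MAPKi and control (x axis) of each host gene (y axis) at the 3 time points, with points for the limma estimate, bars for its SE, a dashed line for the median of the ribosomal protein genes, and a dotted line for the median of all tested genes. At 7 h all 7 points lay above 0 on the deposited scale (4 of them did not with the length trend removed), and Snhg1 and Snhg6 lay above the ribosomal protein median of 0.68.

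Whether the response differed between time points was tested directly. For the effect at 7 h minus that at 4 h, limma called 0 of 7 host genes, against 0.00884% of all genes, with 0 of 7 at an unadjusted p under 0.05, against 6.83% of all genes, and 0 of 7 by voom. The differences of effects ran from 0.00 (Snhg12) to 0.60 (Snhg6). For the effect at 10 h minus that at 7 h, limma called 0 of 7, against 0.00877% of all genes, with 0 of 7 by voom and 3 of 7 at an unadjusted p under 0.05, against 26.3% of all genes. These 3 were Snhg8 (−0.84, limma, adjusted p = 0.127), Snhg1 (−0.58, adjusted p = 0.182), and Gas5 (−0.45, adjusted p = 0.137). Both contrasts use the libraries of 7 h, so they share samples. The median of the later contrast over the 7 host genes was −0.45 with all libraries. When single libraries were left out, it ran from −0.22 (without replicate 2 of control at 7 h) to −0.58 (without replicate 2 of p38-MAPKi at 7 h).

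The level of the host genes in each library was set beside that of the ribosomal protein genes. The mean of the 7, each centred on its own mean of log2 RPKM, was highest in replicates 1 and 2 of p38-MAPKi at 7 h (0.38 and 0.25) and in replicate 2 of p38-MAPKi at 4 h (0.26). It was lowest in replicate 2 of control at 7 h (−0.30) and in replicate 1 of p38-MAPKi at 4 h (−0.23). The median of the ribosomal protein genes, centred likewise, was 0.60, 0.52, and 0.36 in the first 3 of these libraries and −0.37 and −0.06 in the last 2. The highest and the lowest library were thus shared, but the next lowest for the ribosomal protein genes was replicate 1 of p38-MAPKi at 10 h (−0.34), where the host genes were at −0.09.

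**Figure D3:**
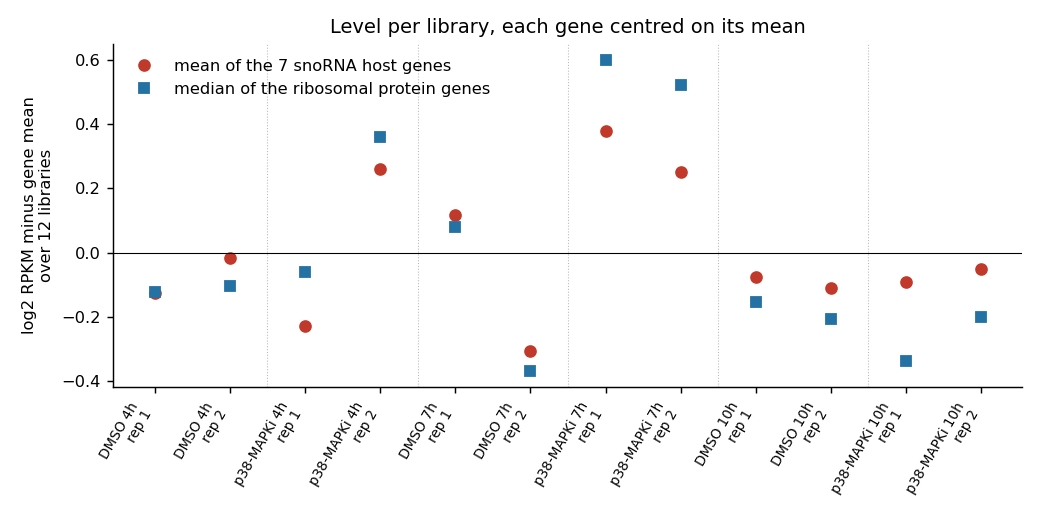
Level in each of the 12 libraries (x axis) as log2 RPKM minus the mean of the gene over the libraries (y axis), with circles for the mean of the 7 host genes and squares for the median of the ribosomal protein genes. The host genes stood highest in replicate 1 of p38-MAPKi at 7 h (0.38) and lowest in replicate 2 of control at 7 h (−0.30), and the ribosomal protein genes had their highest and lowest values in the same libraries.

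The likeness differed among the host genes. The correlation with the ribosomal protein median over the 12 libraries was 0.93 for Gas5, 0.89 for Snhg1, 0.84 for Snhg6, and 0.83 for Snhg8, but 0.54 for Snhg3, 0.48 for Snhg5, and 0.40 for Snhg12. These points share library, depth, and treatment and are a description. The same 4 genes at the head of this order also had the strongest negative correlation with the log of the depth, from −0.82 (Gas5) to −0.56 (Snhg1), against −0.43 to −0.08 for the rest, and the part of depth was not tested. Between pairs of host genes the correlation was 0.22 to 0.91 with a median of 0.55 over 21 pairs. Outside the host and ribosomal protein genes, the genes whose pattern was most like the mean of the 7 were Polr2g (a subunit of RNA polymerase II, r = 0.98), Cox6c (a subunit of cytochrome c oxidase, 0.97), Cacybp (0.97), Igbp1 (0.96), and Med30 (a Mediator subunit, 0.96), among 3967 genes with at least 10 RPKM in every library. The median r with the mean of the host genes was 0.88 for 78 ribosomal protein genes and 0.15 for all 3967.

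The median log2 difference of the ribosomal protein genes was 0.26 at 4 h, 0.68 at 7 h, and −0.10 at 10 h. With quantile normalization it was 0.43 at 7 h, as was the median of the 7 host genes. At 7 h, 9 of 79 were called and higher (0.932% of all tested genes were), among them Rpl38 (1.51, limma, adjusted p = 0.0456) and Rpl39 (1.35, adjusted p = 0.0456), and the lowest values were those of Rpl15 (0.17) and Rplp0 (0.18). Both p38-MAPKi libraries lay above both controls for 71 of 79 at this time point (23% of all genes). At 10 h they lay above for 0 of 79 (22.6%) and below for 33 (29.6%).

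Differences between p38-MAPKi and control depended on the length of a gene, and this bears on the host genes, whose median counted length was 1626 bases. Across genes, the Spearman correlation of the log2 difference with the counted length was −0.36 at 4 h, −0.46 at 7 h, and 0.06 at 10 h. At 7 h the median difference of genes with 500 to 1000 counted bases was 0.50, and Snhg3 (0.13) and Snhg8 (0.47), the host genes in this range, lay below it. Genes of 1000 to 2000 bases had a median of 0.27. Snhg6 (0.78) lay above their upper quartile of 0.59, and Snhg5 and Snhg12 lay below the median. Genes of 2000 to 4000 bases had a median of −0.03, and Gas5 (0.37) and Snhg1 (0.82) both lay above the upper quartile of 0.27.

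**Figure D4:**
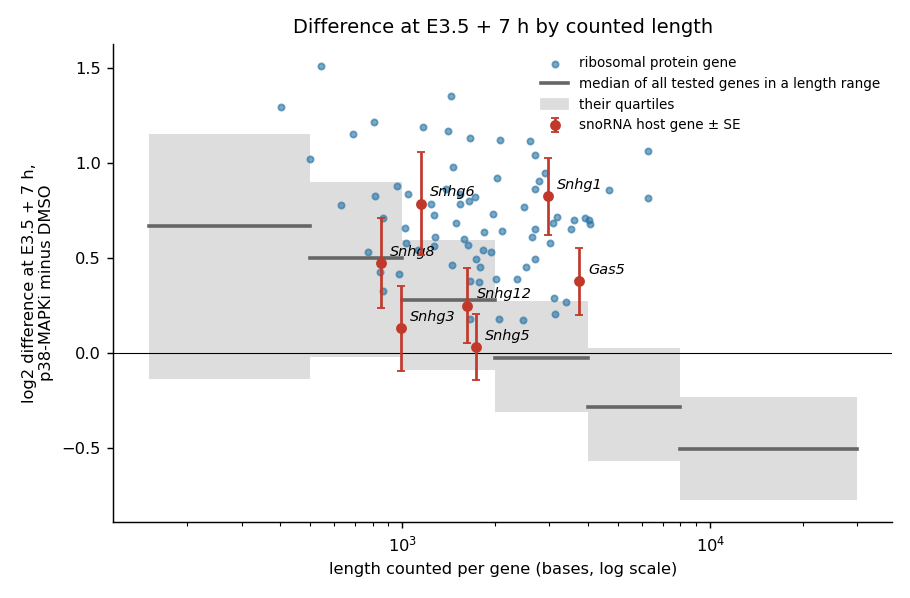
Log2 difference between p38-MAPKi and control at 7 h (y axis) by the counted length of a gene in bases (x axis, log scale), with large points and SE bars for the host genes, small points for ribosomal protein genes, and lines and grey boxes for the median and quartiles of all tested genes in a length range. Snhg1, Gas5, and Snhg6 lay above the grey box of their length range, and Snhg3, Snhg5, Snhg8, and Snhg12 lay below the median of theirs.

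With this trend removed from each library, the median of the 7 host genes at 7 h was −0.01 and that of the ribosomal protein genes 0.46. Snhg1 had 0.84 (SE 0.190, limma, adjusted p = 0.113) and Gas5 0.49 (SE 0.166, adjusted p = 0.169), each near its value on the deposited scale or above it, and Snhg6 had 0.37 (adjusted p = 0.347). Snhg3 had −0.35, Snhg5 −0.20, Snhg8 −0.06, and Snhg12 −0.01. For the common effect, Snhg1 was still called (0.48, limma, adjusted p = 0.0226). The trend was removed on the counted length. The annotated transcripts were shorter, at 312 to 2728 bases for Snhg1 and 346 to 2556 bases for Gas5, and a removal on transcript length was not made.

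Centring each library on its median moved the host genes the other way. It shifted the median of all tested genes at 7 h from −0.14 to 0.05 and the median of the 7 from 0.37 to 0.57. Limma then called 0 of 7, but also 0 of all 10940 tested genes. An unadjusted p under 0.05 was found for 5 of 7, against 3053 of the 10940.

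**Figure D5:**
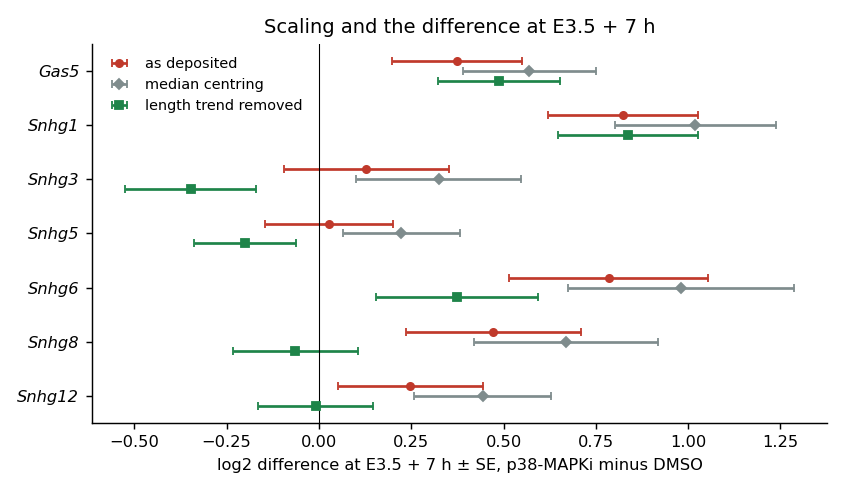
Log2 difference at 7 h (x axis) of each host gene (y axis) with its SE, from the values as deposited (circles), after centring each library on its median (diamonds), and after removal of the length trend (squares). Gas5, Snhg1, and Snhg6 lay above 0 under each, and the other 4 lay above 0 as deposited and after centring but below 0 with the length trend removed.

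Of 14 other noncoding snoRNA host genes, 11 were in the table and 10 had a tested entry at 7 h. Zfas1 and Snhg15 were called, and both rose. Zfas1 had a log2 difference of 1.45 (SE 0.280, limma, adjusted p = 0.0461) and Snhg15 of 1.26 (SE 0.239, adjusted p = 0.0461), and these 2 were also called for the common effect (0.67 and 0.69). Values for the rest were 2.07 for Snhg9 (adjusted p = 0.0681, from 1.63 ± 0.985 to 7.31 ± 5.47 RPKM, SD, n = 2), 1.35 for Epb41l4aos (adjusted p = 0.0532), 0.72 for Dancr, 0.43 for Snhg20, 0.30 for Snhg4, −0.02 for Snhg17, −0.08 for Snhg11, and −0.37 for the expressed Snhg14 entry (chr7:59937371-59975759). Their median was 0.58, above that of the 7 host genes (0.37) and of all tested genes (−0.14), and 2 of 10 called higher compares with 0.932% of all tested genes. At 4 and 10 h, 0 of 11 were called by limma, against 0.909% and 0.803% of all tested genes. An unadjusted p under 0.05 was found for 1 and 2 of the 11, near the 9.42% and 19.8% of all genes. Snhg18 was tested at those time points, with 0.14 and −0.40.

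Genes that act on snoRNAs or on their hosts were described from lists. At 7 h 28.4% of all tested genes had an unadjusted p under 0.05. Among 15 proteins of snoRNA particles and their assembly, 0 were called by limma at 7 h and 4 (a share near that of all genes) had an unadjusted p under 0.05, with values from 0.70 (Nhp2) and 0.62 (Dkc1, the pseudouridine synthase) to −0.60 (Naf1) and −0.54 (Nop56). Among 15 protein-coding snoRNA hosts, 0 were called and 6 had an unadjusted p under 0.05, from 0.68 (Eef1b2) and 0.62 (Dkc1) to −0.84 (Hspa8) and −0.54 (Nop56). Among 15 other TOP mRNAs, 0 were called and again 4 had an unadjusted p under 0.05, with 0.68 for Eef1b2, 0.53 for Eef1d, −0.55 for Eif4b, and −0.43 for Pabpc1. The medians of these lists were 0.15, 0.07, and 0.19.

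Of 12 factors of nonsense-mediated decay, Upf3b rose at 7 h (1.14, limma, adjusted p = 0.0456), and no other was called. Called higher were thus 1 of 12, against 0.932% of all tested genes. Smg9 had 0.76, and Smg1 and Smg8 had −1.23 and −0.87 (limma, adjusted p = 0.0504 and 0.0534). Of the 12 factors, 9 lay below 0, with a median of −0.37 and a median counted length of 5669.5 bases. All tested genes of 4000 to 8000 bases had a median of −0.29, and the part of length was not tested. Of 5 mRNAs known as targets of this decay, Ddit3, a transcription factor of the stress response, rose (1.47, limma, adjusted p = 0.0397), and Gadd45a, Gadd45b, Atf4, and Smg5 had 0.86, 0.32, −0.06, and −0.28. Ddit3 was the only 1 of these 5 called, against 0.932% of all tested genes called higher.

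The nearest annotated genes had values of their own at 7 h. Beside Snhg1 (0.82), Slc3a2 and Wdr74 both had 0.17. Rcc1 and Phactr4 beside Snhg3 had −0.01 and −0.77, Syncrip and Zfp949 around Snhg5 had −0.16 and −0.01, and Trnau1ap beside Snhg12 had 0.27. Rab42, the other neighbour of Snhg12, had 2.52, from 0.675 ± 0.876 to 1.66 ± 0.855 RPKM (SD, n = 2). None of these 8 was called by limma. Zbtb37, Mcmdc2, Tcf24, Prss12, and Ndst3 were too low to be tested.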

How the data were processed

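RNA from pools of 30 blastocysts was sequenced in 12 libraries (2 in each of 6 groups). According to the submitters' processing notes, reads were trimmed with Trim Galore 0.4.1 and mapped to GRCm38 with HISAT2 2.0.5. Counting per gene was done in SeqMonk, and the values the authors deposited are log2 RPKM. The strand option and the treatment of reads with several positions are not given in the sources used here.

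A value worth 0.9 of a read stands for genes with 0 reads, which gave the depth of each library, and whole reads were recovered for 34228 of 34245 entries (within 0.02 of a read). The deposited log2 values were tested with limma 3.58.1 (eBayes with the trend, R 4.3.3) over all genes that reached 1 RPKM in 2 or more libraries of a fit, with Benjamini-Hochberg adjustment over all tested genes and a threshold of 0.05. The procedure was tested on simulated data. Results were recomputed with quantile normalization, median centring, limma without its trend, other filters and pseudocounts, removal of the length trend (loess, span 0.5), voom on recovered reads, a replicate block, 1 fit over 12 libraries, and leaving out each library. Lists were summarised in Python 3.11.15 with pandas 2.3.3 and drawn with matplotlib 3.10.9.

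Genes were named by a rule: all 7 host genes, every other noncoding host of the list, the 2 highest and 2 lowest of each list of related genes at 7 h (called genes first), the nearest genes by RefSeq (1 is not reported here), and the 5 genes most like the mean of the hosts. Other names (the cell type markers, Gadd45b) were added after their values were seen. The host genes and lists were chosen with earlier results of these data known.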

Additional observations from a re-analysis of the deposited data

How the results depend on the processing

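With 2 libraries per group, 1 library could decide a call, and Snhg1 and Snhg6 at 7 h passed or failed with the settings. At 7 h, where 0 of 7 host genes were called as reported, 1 (Snhg1) was called without the filter on low values, 1 (Snhg1) with a pseudocount of 5, 1 (Snhg1) with voom on recovered reads, 1 (Snhg1) in 1 fit over all 12 libraries, and 2 (Snhg1 and Snhg6) among genes of at least 10 RPKM. Of all tested genes, these settings called, in the same order, 1236 of 34245, 647 of 10940, 1728 of 10924, 2586 of 10940, and 947 of 5081. For the common effect the count of host genes went from 1 to 0 without the trend of limma and to 0 without the filter. The cause was not tested. The counts at 10 h, for the control time points, and for the difference between 7 h and 4 h were 0 under every alternative run.

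The replicate numbers are shared by the groups, but nothing in the labels pairs the pools, and the correlation of same-numbered deviations was −0.01, 0.16, and 0.17 at 4, 7, and 10 h. With the replicate number as a block, 2 of 7 host genes were called at 7 h, Snhg1 (limma, adjusted p = 0.00842) and Snhg6 (adjusted p = 0.0118). That fit called 2023 of all 10940 tested genes. The block changed no other count of host genes.

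Direction changed outside these counts for small differences. With the length trend removed, Gas5 and Snhg6 had −0.040 and −0.039 at 4 h, and Snhg3, Snhg5, Snhg8, and Snhg12 had −0.35, −0.20, −0.064, and −0.0085 at 7 h. Quantile normalization gave Gas5 −0.086 at 4 h. When each library was left out in turn, the lone library of a group was assumed to vary like the others. The count of host genes called was then 0 to 1 at 4 h, 0 to 2 at 7 h, 0 to 1 for the difference between 10 h and 7 h, and 0 to 1 for the common effect. At 4 h the log2 difference was −0.069 to 0.16 for Gas5, −0.50 to 0.037 for Snhg3, −0.20 to 0.12 for Snhg5, −0.15 to 0.51 for Snhg6, −0.38 to 0.24 for Snhg8, and −0.044 to 0.53 for Snhg12. At 7 h it was −0.17 to 0.42 for Snhg3 and −0.045 to 0.10 for Snhg5. At 10 h it was −0.024 to 0.13 for Snhg3, −0.065 to 0.077 for Snhg5, −0.031 to 0.44 for Snhg6, and −0.035 to 0.22 for Snhg12. Snhg1 was above 0 under every alternative at each time point.

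The number of all genes called also depended on the setting. At 4 h it was 98, and 0 to 107 under the alternatives that keep every library, and at 10 h it was 88, and 0 to 522. At 7 h it was 233 as reported, 0 without the trend, 0 with median centring, 1 with the length trend removed, 12 with quantile normalization, 1236 without the filter, 947 at 10 RPKM or more, 647 with a pseudocount of 5, 1728 with voom, 2023 with the block, and 2586 in 1 fit over the 12 libraries, and it ran from 0 to 2919 when a library was left out. No gene was called higher at 7 h without the trend, with median centring, or with the length trend removed. The rises called at 7 h for Zfas1, Snhg15, Rpl38, Rpl39, Upf3b, and Ddit3 were therefore lost there. For the common effect the number of all genes called was 1175, and 166 to 1743 under the alternatives that keep every library. It rose above this range when some single libraries were left out.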
